A study of Mus musculus with 12 samples.

Results

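Solute carriers are membrane proteins that move small molecules and ions across the plasma membrane and the membranes of organelles, among them amino acids, sugars, nucleotides, metal ions, vitamins and transmitters. The genes described here are the protein-coding loci of an FPKM table whose gene name begins with Slc and a number and whose mean over all 12 libraries was at least 2 FPKM, without Slc30a1, Slc1a2, Slc1a3, Slc38a1 and Slc38a3. FPKM count fragments per length of transcript and per size of the library, so a level is already scaled for transcript length. The members were selected on this mean level, which does not use the difference between treatments. They number 154 of the 40597 loci in the table. Of all 355 solute carrier genes in the table, 196 lay below the threshold and 5 were left out by name. Just inside the threshold were Slc16a13 (2.05 FPKM), Slc35g1 (2.21 FPKM) and Slc6a15 (2.25 FPKM), and just outside it were Slc41a3 (1.98 FPKM), Slc2a13 (1.93 FPKM) and Slc2a12 (1.92 FPKM).

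The RNA came from neurospheres, free-floating balls of neural stem and progenitor cells, that were grown from the hypothalamus of wild-type C57Bl/6 mouse fetuses of embryonic day 14.5. At the third passage the cultures were given 100 nM dexamethasone, a synthetic glucocorticoid, or an equal volume of the ethanol vehicle, both for 4 h. The 4 groups were male cultures under dexamethasone, male cultures under vehicle, female cultures under dexamethasone and female cultures under vehicle, with 3 biological replicates each. The labels do not say whether a replicate is an animal, a litter or a culture, and each p-value therefore reflects how far these libraries spread, which may be technical in part. The question the design puts to these genes is whether 4 h of dexamethasone changed the transporter RNA of male and female progenitors.

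The glucocorticoid receptor is a transcription factor that moves to the nucleus when it binds its ligand and regulates genes through DNA elements made of a pair of hexamers facing each other. In liver, muscle and other tissues glucocorticoids are known for shifting the supply of sugars and amino acids, and carriers are among the proteins through which cells take these up or give them out. Within a cell, the Slc25 family carries metabolites through the inner mitochondrial membrane, the Slc35 family brings nucleotide sugars into the endoplasmic reticulum and Golgi, and the Slc39 and Slc30 families bring zinc into and out of the cytosol.

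All 12 neural stem cell markers checked were above 1 FPKM (Fabp7 was highest, at 3503 FPKM), as were all 8 astrocytic markers, 6 of the 7 oligodendrocyte lineage markers in the table and 5 of 12 neuronal markers, with the neuronal glutamate transporter Slc17a6 at 0 in every library. Of the markers of cells that could have been carried along, 0 of 8 microglial, 1 of 8 endothelial (Flt1), 1 of 8 mural and fibroblast (Acta2) and 0 of 4 erythroid genes were above 1 FPKM, and C1qa, Ly6c1, Lum, Hba-a1 and Hbb-bs were at 0 throughout. In bulk RNA, fewer cells of a type and less RNA per cell cannot be told apart. The absolute depth is unknown, since the table holds no counts. A pair of libraries stood apart. Loci without a gene name held 53.1% of the FPKM in male dexamethasone library 2 and 75.0% in male vehicle library 3, and 11.6% to 38.6% in the other 10. Xist, which females express, was at 14.1 FPKM in male dexamethasone library 2 and 3.04 FPKM in male vehicle library 2, at no more than 0.0466 FPKM in the other male libraries and at 136 to 328 FPKM in the female libraries. The 154 members together held 0.770% to 0.914% of the protein-coding FPKM of a library.

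The first question is what these progenitors express. The members had a median level of 11.5 FPKM, against 15.7 FPKM for the 10053 protein-coding loci averaging 2 FPKM or more. Only 8 members reached 100 FPKM and 37 lay below 5 FPKM. Mitochondrial carriers made up 48.95% of the summed FPKM of all members. The 3 highest members hold 27.7% of it: the ADP/ATP carriers Slc25a5 and Slc25a4, with means of 570 and 264 FPKM, and the phosphate carrier Slc25a3, with 257 FPKM. Other members of high level were the mitochondrial carriers Slc25a39 (glutathione, 125 FPKM), Slc25a12 (aspartate and glutamate, 106 FPKM), Slc25a25 (ATP-magnesium and phosphate, 102 FPKM) and Slc25a18 (glutamate, 102 FPKM). Slc6a11, a GABA transporter gene, stood at 95.1 FPKM, ahead of the carriers of 2-oxoglutarate (Slc25a11, 61.4 FPKM) and citrate (Slc25a1, 61.1 FPKM) and of the glycine transporter Slc6a9 (59.9 FPKM).

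Slc25a5 ranged from 522 to 635 FPKM over the 12 libraries and lay above every other member in each. Slc25a4 ranged from 208 to 306 FPKM and Slc25a3 from 229 to 296 FPKM, so these neighbours did not differ beyond their spread. Slc6a9 led the amino acid carriers. The leading genes of the other classes were the sodium bicarbonate cotransporter Slc4a4 (37.6 FPKM) among ion exchangers, the zinc importer Slc39a1 (45.9 FPKM) among metal carriers, the phosphate transporter Slc20a1 (32.8 FPKM) among carriers of nucleosides, phosphate and sulphate, Slc35b1 (57.2 FPKM) of the nucleotide sugar family, the lactate and pyruvate carrier Slc16a1 (27.9 FPKM), and the peptide transporter Slc15a2 (51.2 FPKM) among carriers of vitamins, lipids and organic ions. The name rule also took in 4 genes that are not carriers themselves: Slc9a3r1 and Slc9a3r2, which encode scaffold proteins for the sodium-proton exchanger, and Slc4a1ap and Slc7a6os. They are counted in the class of their name. Slc27a4, a fatty acid transporter gene, was measured as a locus joined with Urm1.

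**Figure D1:**
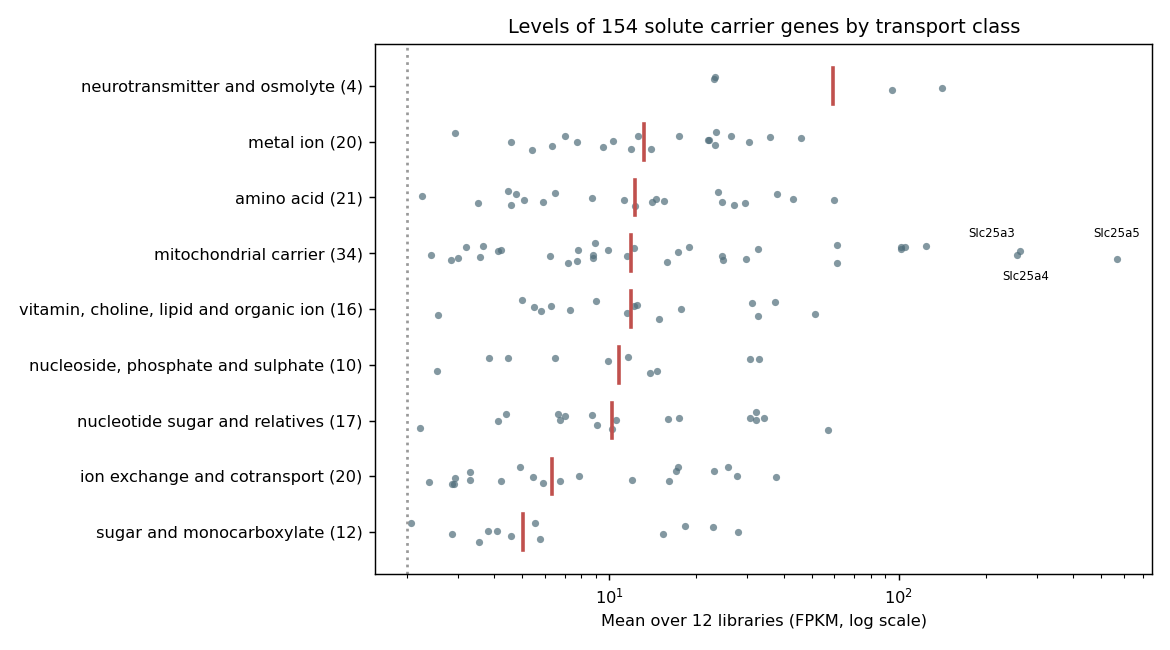
Mean level over the 12 libraries of each of the 154 solute carrier genes (points, FPKM on a log scale), in rows by transport class with the number of genes in brackets. Red bars mark the median of a class and the dotted line marks the threshold of 2 FPKM; the 3 rightmost points are Slc25a5, Slc25a4 and Slc25a3.

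The second question is which members dexamethasone changed. Averaged over both sexes, the genes Slc37a2, Slc25a33 and Slc19a2 rose and Slc39a6 fell, and 150 members were not called (limma on log2(FPKM + 1), adjusted p under 0.05 over the 14931 loci tested). The 3 rises among 154 members compare with 1.15% of all tested loci (171), and the single fall with 0.388% (58). With each library scaled to its protein-coding sum, 1 member rose and 1 fell, and the calls over all loci were 128 higher and 86 lower. Every dexamethasone library had a larger protein-coding sum than the vehicle library of its sex and number. Male libraries 1 had 473538 against 470846 FPKM, and female libraries 2 had 498200 against 459119 FPKM. This scaling therefore moves with the treatment, and the median log2 fold change over all loci under it was -0.078. Without the scaling, 22 members had an unadjusted p under 0.05, 9 higher and 13 lower, which is 14.3% of them, and the share over all loci was 13.6%. Over the 10979 protein-coding loci tested, 15.4% passed that threshold, and 152 were called higher and 51 lower. The share of members that passed was therefore near both of these shares at the unadjusted threshold. The median log2 fold change was -0.031 over the members and -0.0067 over all tested loci. No member had a fold change beyond 0.71 on the log2 scale in either direction, and the 95% interval of 148 members lay within -1 to 1.

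**Figure D2:**
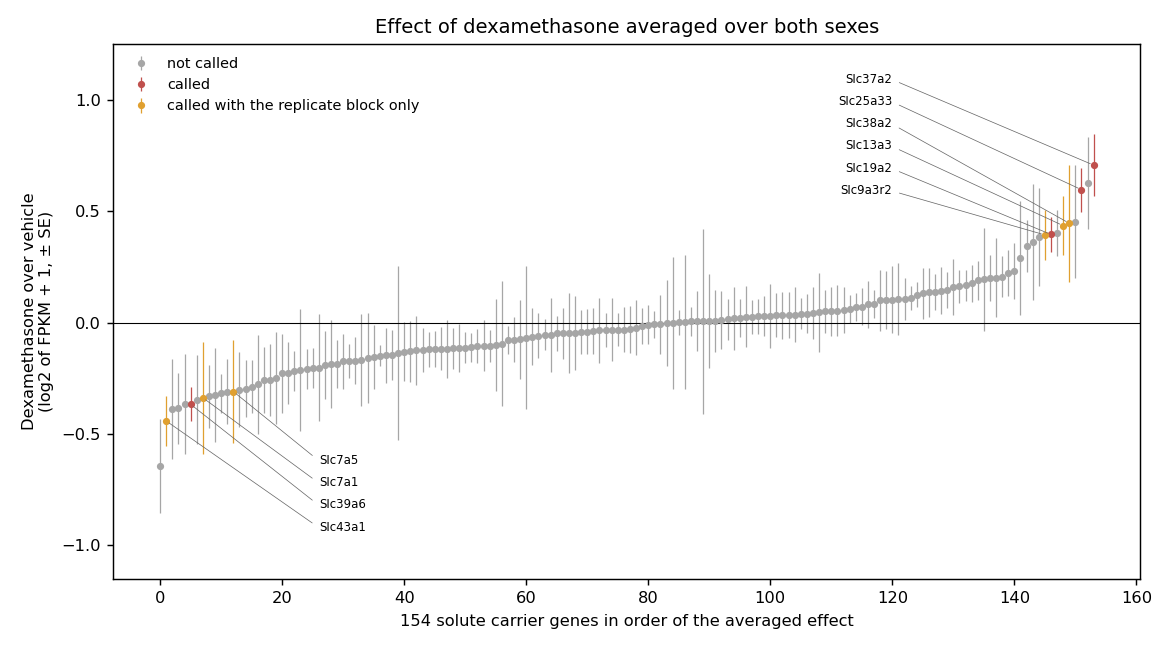
Averaged effect of dexamethasone on each of the 154 genes (log2 of FPKM + 1, dexamethasone over vehicle), ordered from the lowest to the highest value, with bars of 1 standard error. Red points are the 4 called genes and orange points are the 6 called only when the replicate number entered the model; Slc37a2 is highest, at 0.71.

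The receptor acts through DNA elements, and only those within promoter windows were searched here. Before the values of the called genes, the promoters of the 3 genes that rose are shown. Each runs 5′ to 3′ on the strand of the gene, from 250 bases before to 50 bases after the RefSeq start site (GRCm38.p6). Capitals mark the stretch with the fewest mismatches to the receptor element, searched as the hexamer AGAACA, 3 spacer bases of any kind and the hexamer TGTTCT, which reads the same on both strands. The Slc37a2 window is chr9:37255689-37255988 on the minus strand, that of Slc25a33 is chr4:149774218-149774517 on the minus strand and that of Slc19a2 is chr1:164248796-164249095 on the plus strand. One of the 2 windows of Slc7a1, chr5:148392766-148393065 on the minus strand, is shown beside them because it comes nearer to the element than any of the 3. It lies inside the gene, and the other, at the start of the gene in GENCODE M21, has 5 mismatches.
Slc37a2: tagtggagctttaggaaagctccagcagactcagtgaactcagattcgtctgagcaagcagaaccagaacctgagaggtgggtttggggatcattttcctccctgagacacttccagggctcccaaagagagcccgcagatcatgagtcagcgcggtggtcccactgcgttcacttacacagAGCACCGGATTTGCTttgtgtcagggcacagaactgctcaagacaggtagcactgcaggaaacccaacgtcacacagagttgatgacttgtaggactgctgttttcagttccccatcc
Slc25a33: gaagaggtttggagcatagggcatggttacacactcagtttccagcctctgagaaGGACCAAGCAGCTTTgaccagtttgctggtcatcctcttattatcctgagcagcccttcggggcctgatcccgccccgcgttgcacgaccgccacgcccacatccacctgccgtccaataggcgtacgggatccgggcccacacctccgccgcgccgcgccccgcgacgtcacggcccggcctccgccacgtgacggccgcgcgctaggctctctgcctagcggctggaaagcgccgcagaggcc
Slc19a2: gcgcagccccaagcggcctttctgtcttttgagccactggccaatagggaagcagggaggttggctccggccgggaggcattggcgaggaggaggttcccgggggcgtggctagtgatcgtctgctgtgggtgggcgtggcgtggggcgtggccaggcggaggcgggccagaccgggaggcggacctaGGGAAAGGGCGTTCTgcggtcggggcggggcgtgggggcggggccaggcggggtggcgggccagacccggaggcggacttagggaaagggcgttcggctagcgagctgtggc
Slc7a1: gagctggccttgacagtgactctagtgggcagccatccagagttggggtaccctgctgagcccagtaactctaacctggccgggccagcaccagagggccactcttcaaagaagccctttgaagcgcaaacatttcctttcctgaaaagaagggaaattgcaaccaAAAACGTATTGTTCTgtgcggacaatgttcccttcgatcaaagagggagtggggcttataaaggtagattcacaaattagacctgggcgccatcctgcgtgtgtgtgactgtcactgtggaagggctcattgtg

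The best stretch differs from the element at 4 bases in Slc37a2 and Slc19a2, at 5 bases in Slc25a33 and at 2 bases in the Slc7a1 window shown. Windows were found for 126 of the 154 members, 170 in all. No member window held the element exactly or with 1 mismatch. With up to 2 mismatches it was in 2 of them, Slc15a2 and Slc7a1, or 1.18%, against 1.63% of the 21263 windows of all protein-coding genes. The single hexamer in either orientation was in 15 member windows (8.82%) and in 16.2% of all protein-coding windows, and the median GC content was 61.8% in member windows and 56.3% in all protein-coding windows. Neither Slc15a2 (log2 fold change 0.20, adjusted p = 0.654) nor Slc7a1 (-0.34, adjusted p = 0.589) was called. These are matches of letters within 300 bases and say nothing of binding there or elsewhere.

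Slc37a2 encodes an exchanger of glucose 6-phosphate for phosphate in the endoplasmic reticulum, and it had the largest fold change of all members. In males it was at 5.57, 4.81 and 3.16 FPKM under dexamethasone, against 2.204, 2.78 and 1.74 FPKM under vehicle. In females it was at 5.71, 4.57 and 6.05 FPKM under dexamethasone, against 3.65, 2.48 and 3.15 FPKM under vehicle. Within each sex every dexamethasone library was above every vehicle library, but male dexamethasone library 3 lay below female vehicle library 1. The mean was 4.98 ± 1.05 FPKM under dexamethasone and 2.67 ± 0.682 FPKM under vehicle (SD, n = 6 each), a ratio of 1.87. The log2 fold change was 0.71 (SE 0.14, limma adjusted p = 0.0392). Leaving out 1 library at a time kept the call in 1 of 12 fits, that without male dexamethasone library 3, and gave an adjusted p of 0.0518 to 0.114 in the others. The gene lies at 9:37227585-37255738 on the minus strand of GRCm38 (GENCODE M21), and an exon of it overlaps Gm48081 on the other strand, for which no value is used here. Such an overlap with a gene on the other strand was present for 39 of the 154 members.

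Slc25a33, a mitochondrial carrier of pyrimidine nucleotides, showed the rise that held most widely. It was at 8.81, 6.65 and 6.18 FPKM in male dexamethasone libraries, against 5.07, 4.50 and 3.95 FPKM in male vehicle libraries. In female libraries it was at 9.01, 8.15 and 7.64 FPKM under dexamethasone, against 5.69, 4.997 and 4.40 FPKM under vehicle. All 6 dexamethasone libraries were above all 6 vehicle libraries. It averaged 7.74 ± 1.15 FPKM under dexamethasone and 4.77 ± 0.611 FPKM under vehicle (SD, n = 6 each), a ratio of 1.62 and a log2 fold change of 0.60 (SE 0.098, limma adjusted p = 0.0153). The call held in 11 of 12 fits without 1 library and was lost without female dexamethasone library 1 (adjusted p = 0.0528). An exon of this gene, at 4:149744036-149774277 on the minus strand, overlaps Gm13068 on the other strand. The Gm13068 locus was at 6.42, 5.20 and 3.03 FPKM in males under dexamethasone, against 4.62, 3.97 and 3.88 FPKM in males under vehicle. In females it was at 7.74, 6.68 and 6.36 FPKM under dexamethasone, against 3.37, 2.68 and 3.84 FPKM under vehicle. The libraries were made with a stranded kit, but whether the counting used strand is not stated in the sources at hand, and reads of overlapping genes, here and at the other members with an overlap, cannot be told apart.

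Slc19a2, which encodes a thiamine transporter of the plasma membrane, was at 15.3, 13.7 and 12.1 FPKM in male dexamethasone libraries, against 10.5, 11.6 and 11.1 FPKM in male vehicle libraries. Its female values were 15.6, 14.4 and 14.6 FPKM under dexamethasone, against 10.8, 8.59 and 11.2 FPKM under vehicle. Here too the 6 dexamethasone libraries lay above the 6 vehicle libraries, by a narrow margin between male dexamethasone library 3 and male vehicle library 2. The mean was 14.3 ± 1.26 FPKM under dexamethasone and 10.6 ± 1.07 FPKM under vehicle (SD, n = 6 each), a ratio of 1.34, and the log2 fold change was 0.40 (SE 0.078, limma adjusted p = 0.0386). The call held in 1 of 12 fits without 1 library, that without male dexamethasone library 3, with an adjusted p of 0.0504 to 0.115 in the others. The gene lies at 1:164249046-164265385 on the plus strand.

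Slc39a6, a zinc importer of the plasma membrane, was the only called fall. It was at 24.7, 19.8 and 24.4 FPKM in male dexamethasone libraries, against 28.8, 29.6 and 27.7 FPKM in male vehicle libraries. In females it was at 22.4, 20.7 and 25.9 FPKM under dexamethasone, against 30.5, 29.04 and 33.3 FPKM under vehicle. All 6 dexamethasone libraries were below all 6 vehicle libraries. It averaged 22.97 ± 2.44 FPKM under dexamethasone and 29.8 ± 1.95 FPKM under vehicle (SD, n = 6 each), a ratio of 0.770 and a log2 fold change of -0.37 (SE 0.076, limma adjusted p = 0.0491). The call held in 1 of 12 fits without 1 library, that without female dexamethasone library 3, with an adjusted p of 0.0653 to 0.131 in the others.

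Without the pair of libraries rich in unnamed loci, male dexamethasone library 2 and male vehicle library 3, none of the 4 genes was called (adjusted p = 0.209 for Slc37a2, 0.0850 for Slc25a33, 0.188 for Slc19a2 and 0.151 for Slc39a6), with log2 fold changes of 0.62, 0.58, 0.39 and -0.33. Without the 2 male libraries of replicate 2, in which Xist was detected, the fold changes were 0.74, 0.62, 0.41 and -0.31 in the same order. None was called either (adjusted p = 0.134, 0.0963, 0.174 and 0.215). Calls over all tested loci fell as well, from 171 higher and 58 lower to 95 and 19 in the first of these fits. In the second they fell to 85 and 19.

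**Figure D3:**
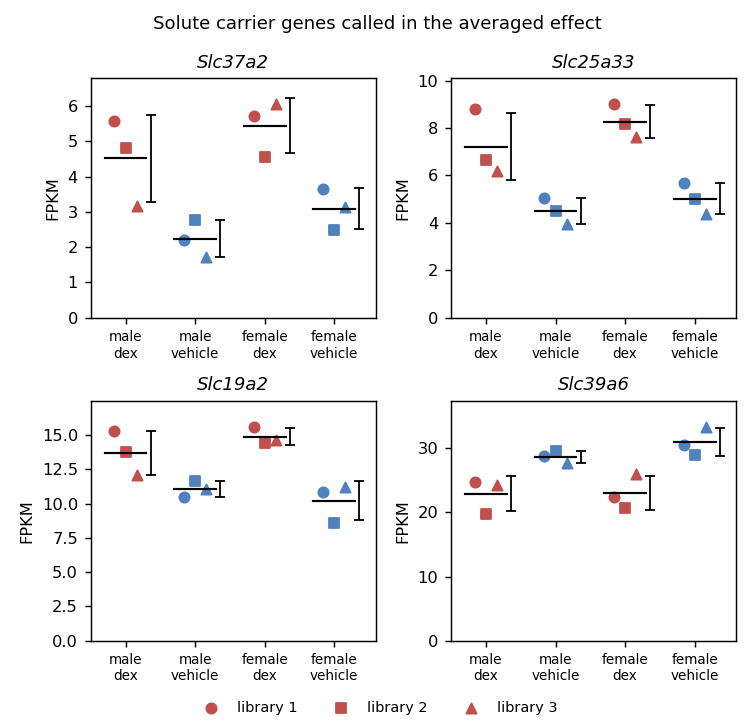
FPKM of the 4 called genes in every library of the 4 groups (symbols mark libraries 1, 2 and 3, red for dexamethasone and blue for vehicle; lines are group means and bars are 1 SD, n = 3). The dexamethasone libraries lie above the vehicle libraries of the same sex in Slc37a2, Slc25a33 and Slc19a2 and below them in Slc39a6.

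Over all members, the 6 dexamethasone libraries were entirely above the 6 vehicle libraries at 2 genes, Slc25a33 and Slc19a2, where the share over all tested loci was 1.41%. They were entirely below at 2 genes, against 0.804% of all tested loci. The second of these, beside Slc39a6, was Slc38a10, a member of the family of sodium-coupled neutral amino acid transporters, which is named here after its values were seen. It averaged 22.4 ± 1.01 FPKM under dexamethasone and 24.9 ± 1.16 FPKM under vehicle (SD, n = 6 each), a log2 fold change of -0.15 with an adjusted p of 0.212 (limma).

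Libraries of a sex with the same replicate number resembled each other across treatments. Over the members, the correlation of their deviations from the group means was 0.403 to 0.689 in the 6 same-numbered pairs. It was negative in all pairs of unlike number, which adds little, since the 3 deviations of a group sum to 0. With the number within a sex as a block, 6 members were called higher and 4 lower, against 2.81% and 2.57% of all tested loci. These 10 comprise the 4 genes above, with blocked adjusted p of 0.0126 for Slc37a2, 0.00443 for Slc25a33, 0.0405 for Slc19a2 and 0.0338 for Slc39a6, and 6 genes that the model without the block did not call. Counting signs alone, 16 members (10.4%) were higher under dexamethasone in all 6 pairs and 19 (12.3%) were lower, against 9.83% and 10.1% of all tested loci.

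Of the 6 further genes, 4 carry amino acids. Slc7a1, the carrier of arginine and lysine, was at 8.16, 11.8 and 18.6 FPKM in male dexamethasone libraries 1 to 3, against 12.3, 16.3 and 25.9 FPKM in the male vehicle libraries of the same numbers. Female cultures had 11.7, 9.02 and 16.99 FPKM under dexamethasone, against 14.8, 10.2 and 18.6 FPKM under vehicle. The groups overlapped widely, yet in each of the 6 pairs the dexamethasone library was the lower (log2 fold change -0.34, adjusted p = 0.589 without and 0.0152 with the block). Slc7a5, the large neutral amino acid carrier, was at 18.7, 20.8 and 30.9 FPKM in male dexamethasone libraries, against 26.6, 33.1 and 40.9 FPKM in male vehicle libraries. Its female values were 28.5, 19.2 and 39.8 FPKM under dexamethasone, against 30.4, 20.5 and 44.5 FPKM under vehicle. It too was lower under dexamethasone in all 6 pairs (-0.31, adjusted p = 0.590 without and 0.0219 with the block). Slc7a5 is named after its values were seen. Its partner chain Slc3a2, likewise, averaged 45.5 ± 7.27 FPKM under dexamethasone and 40.7 ± 6.86 FPKM under vehicle (SD, n = 6 each) and was higher in all 6 pairs, without a call in either model (log2 fold change 0.16, adjusted p = 0.610 and 0.132).

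Slc38a2, a sodium-coupled carrier of small neutral amino acids, stood higher under dexamethasone in each pair. It was at 26.05, 45.9 and 71.6 FPKM in male dexamethasone libraries, against 23.4, 28.8 and 49.2 FPKM in male vehicle libraries. Female libraries held 30.6, 39.4 and 53.2 FPKM under dexamethasone, against 24.6, 30.5 and 32.9 FPKM under vehicle. The groups of each sex overlapped, and libraries with the number 3 were the highest of their group (0.45, adjusted p = 0.487 without and 0.0481 with the block). Slc43a1, a carrier of branched-chain and other large neutral amino acids, was at 4.35, 4.10 and 5.43 FPKM in male dexamethasone libraries, against 5.99, 7.29 and 6.46 FPKM in male vehicle libraries. The female values were 2.91, 2.56 and 3.97 FPKM under dexamethasone, against 4.22, 4.16 and 5.54 FPKM under vehicle. Within each sex the dexamethasone libraries lay below the vehicle libraries (-0.44, adjusted p = 0.106 without and 0.0359 with the block).

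The last 2 of the 6 were higher under dexamethasone with the block. Slc13a3, a sodium-coupled dicarboxylate transporter, averaged 5.26 ± 0.883 FPKM under dexamethasone and 3.69 ± 1.10 FPKM under vehicle (SD, n = 6 each), with 5 of 6 pairs higher (0.43, adjusted p = 0.187 without and 0.0422 with the block). The scaffold gene Slc9a3r2 averaged 4.91 ± 0.664 FPKM under dexamethasone and 3.51 ± 0.629 FPKM under vehicle and was higher in all 6 pairs (0.39, adjusted p = 0.155 without and 0.0237 with the block). Without the block it was also called when female vehicle library 2 was left out (adjusted p = 0.0449).

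**Figure D4:**
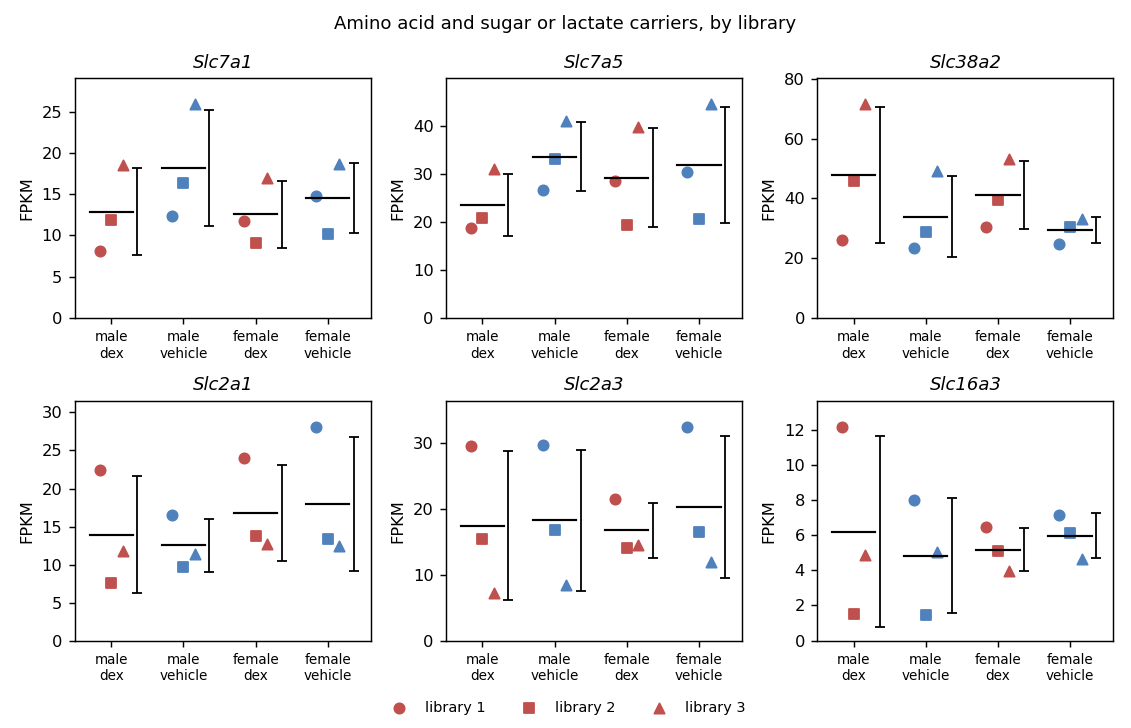
FPKM of 3 amino acid carriers (upper row) and 3 sugar or lactate carriers (lower row) in every library, with symbols for libraries 1, 2 and 3, red for dexamethasone and blue for vehicle; lines are group means and bars are 1 SD (n = 3). Libraries of the same number lie close in some cases, such as Slc2a3 at 29.6 FPKM in male dexamethasone library 1 and 29.7 FPKM in male vehicle library 1. In others they lie further apart, such as Slc16a3 at 12.1 FPKM and 7.97 FPKM in the same libraries.

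Some members varied widely between libraries of a group. The median within-group SD of log2 values was 0.206 over the members and 0.182 over the protein-coding loci of at least 2 FPKM. The 5 members with the largest SD, named after their values were seen, were Slc16a3, a lactate exporter (0.790), the glucose transporter Slc2a3 (0.745), the glutamate transporter Slc1a1 (0.609), Slc43a2 (0.571) and the glucose transporter Slc2a1 (0.567). Slc2a3 was at 29.6, 15.5 and 7.25 FPKM in male dexamethasone libraries, against 29.7, 16.8 and 8.40 FPKM in male vehicle libraries. Slc2a1 was at 22.5, 7.53 and 11.8 FPKM in male dexamethasone libraries, against 16.5, 9.74 and 11.4 FPKM in male vehicle libraries. In both genes library 1 was the highest of its group in all 4 groups. Slc16a3 was at 12.1, 1.53 and 4.88 FPKM in male dexamethasone libraries, against 7.97, 1.45 and 5.01 FPKM in male vehicle libraries. For Slc2a1 the log2 fold change was -0.0015 (SE 0.30 without and 0.10 with the block), and for Slc16a3 it was 0.0054 (SE 0.41 without and 0.087 with the block). Neither was called in either model (with the block, adjusted p = 0.997 for Slc2a1 and 0.980 for Slc16a3). An exon of Slc2a1 overlaps Gm12868 on the other strand.

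By transport class the calls without the block were scattered. Of 34 mitochondrial carriers 1 rose, Slc25a33, and 33 were not called, with a median log2 fold change of 0.022. The 3 most abundant had small differences: Slc25a5 averaged 592 ± 35.5 FPKM under dexamethasone and 547 ± 17.3 FPKM under vehicle (adjusted p = 0.395), Slc25a4 averaged 277 ± 27.5 FPKM under dexamethasone and 250 ± 22.5 FPKM under vehicle (adjusted p = 0.457), and Slc25a3 averaged 257 ± 22.4 FPKM under dexamethasone and 256 ± 11.6 FPKM under vehicle (adjusted p = 0.985; SD, n = 6 each). Slc25a25, Slc25a24 and Slc25a23, calcium-regulated carriers of ATP-magnesium and phosphate, had lower means under dexamethasone without a call. Slc25a25 averaged 87.6 ± 15.8 FPKM under dexamethasone and 116 ± 27.6 FPKM under vehicle (-0.38, adjusted p = 0.331), and it overlaps Naif1 on the other strand. Slc25a24 averaged 3.03 ± 0.783 FPKM under dexamethasone and 4.09 ± 1.03 FPKM under vehicle (-0.33, adjusted p = 0.342). Slc25a23, named after its values were seen, averaged 21.8 ± 3.65 FPKM under dexamethasone and 27.2 ± 2.92 FPKM under vehicle. It was lower in all 6 pairs (-0.32, adjusted p = 0.150 without and 0.0803 with the block), and it overlaps Gm17168 on the other strand. The glutamate carrier Slc25a22 had a log2 fold change of -0.37 (adjusted p = 0.506). On the higher side were Slc25a53 (0.45, adjusted p = 0.466) and the carrier of basic amino acids Slc25a29 (0.38, adjusted p = 0.471).

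Of 20 metal ion carriers 1 fell, Slc39a6, and the class median was 0.025. Slc39a14, an importer of zinc and iron, had a fold change within the range of the called genes and a wider spread. It was at 16.5, 18.9 and 9.31 FPKM in male dexamethasone libraries, against 7.16, 7.30 and 11.4 FPKM in male vehicle libraries. Among females the values were 17.1, 12.6 and 13.4 FPKM under dexamethasone, against 10.2, 6.41 and 12.4 FPKM under vehicle. The female groups did not overlap, while male dexamethasone library 3 was below male vehicle library 3 (0.63, SE 0.21, adjusted p = 0.229). Of 21 amino acid carriers none was called without the block, and 16 of the 21 fold changes were negative (median -0.076), as were 85 of the 154 members and 7694 of the 14931 tested loci. They include Slc6a17, a vesicular carrier of neutral amino acids in neurons (-0.39, adjusted p = 0.477). With the block, Slc7a1, Slc7a5 and Slc43a1 of this class were called lower and Slc38a2 was called higher. Of 20 ion exchangers and cotransporters none was called without the block (median -0.11), and with it Slc9a3r2 was.

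Of the 4 neurotransmitter and osmolyte carriers none was called. Slc18b1, a vesicular polyamine transporter and the member with the most negative fold change, was at 18.1, 12.4 and 21.3 FPKM in male dexamethasone libraries, against 20.1, 36.1 and 22.1 FPKM in male vehicle libraries. Female cultures had 11.7, 26.5 and 18.1 FPKM under dexamethasone, against 32.4, 29.9 and 29.1 FPKM under vehicle. The female groups did not overlap, while male dexamethasone library 3 reached the range of the male vehicle libraries (-0.64, SE 0.21, adjusted p = 0.229). Slc6a11 averaged 84.8 ± 23.5 FPKM under dexamethasone and 106 ± 30.2 FPKM under vehicle (SD, n = 6 each; -0.31, adjusted p = 0.381). Astrocytes express this gene, and the summed level of the 8 astrocytic markers was 752 to 2241 FPKM in male dexamethasone libraries, 715 to 1510 FPKM in male vehicle libraries, 1336 to 2182 FPKM in female dexamethasone libraries and 1085 to 2421 FPKM in female vehicle libraries. Its part in the values of these carriers was not tested.

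Of 10 carriers of nucleosides, phosphate and sulphate 1 rose without the block, Slc37a2 (median 0.015), with Slc13a3 beside it under the block, and of 16 carriers of vitamins, choline, lipids and organic ions 1 rose, Slc19a2 (median -0.079). None of the 17 genes of the nucleotide sugar family was called (median -0.035). The nearest was Slc35c2, a relative of the Golgi GDP-fucose carrier, which was at 40.3, 26.4 and 32.1 FPKM in male dexamethasone libraries, against 23.2, 30.1 and 27.7 FPKM in male vehicle libraries. Female libraries held 40.9, 36.02 and 35.8 FPKM under dexamethasone, against 25.8, 25.9 and 24.7 FPKM under vehicle. The female groups did not overlap, while the male groups did (0.40, SE 0.10, adjusted p = 0.109). Without male dexamethasone library 2 it was called higher (adjusted p = 0.0433). None of the 12 sugar and monocarboxylate carriers was called (median -0.070), with Slc16a13 at -0.35 (adjusted p = 0.474). This gene averaged 1.72 FPKM under dexamethasone and 2.39 FPKM under vehicle, so it reached the threshold of 2 FPKM only through the vehicle libraries, and nothing is read from its direction.

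The third question is whether male and female progenitors differed. Taken alone, neither sex gave a called member (limma): in males 0 of 154, with 11 at an unadjusted p under 0.05, and in females 0 of 154, with 12. Over all loci the shares called were 0.315% in males and 0.482% in females, and at the unadjusted threshold 6.38% and 8.02%. With the block, Slc25a33 was called in males (adjusted p = 0.0332) and in females (0.0248), and Slc7a1 and Slc7a5 were called lower in males. Over all 14931 loci the block called 95 higher and 53 lower in males, and 128 higher and 59 lower in females. The difference between the effects, female minus male, was called for 0 members and had an unadjusted p under 0.05 for 0, against 0.0335% and 1.47% of all loci. For the called genes, in the fit without the block, this difference was -0.10 for Slc37a2 (95% interval -0.72 to 0.53), 0.054 for Slc25a33 (-0.39 to 0.49), 0.23 for Slc19a2 (-0.12 to 0.58) and -0.10 for Slc39a6 (-0.44 to 0.24).

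The fold changes of the sexes, which share no library, were correlated over the 154 members (Pearson r = 0.744, Spearman rho = 0.673) and had the same sign in 115 of them (74.7%). Over the protein-coding loci of at least 2 FPKM, r was 0.686 and the share of equal sign 74.1%. These describe the members and carry no p, since genes of one library are not independent.

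**Figure D5:**
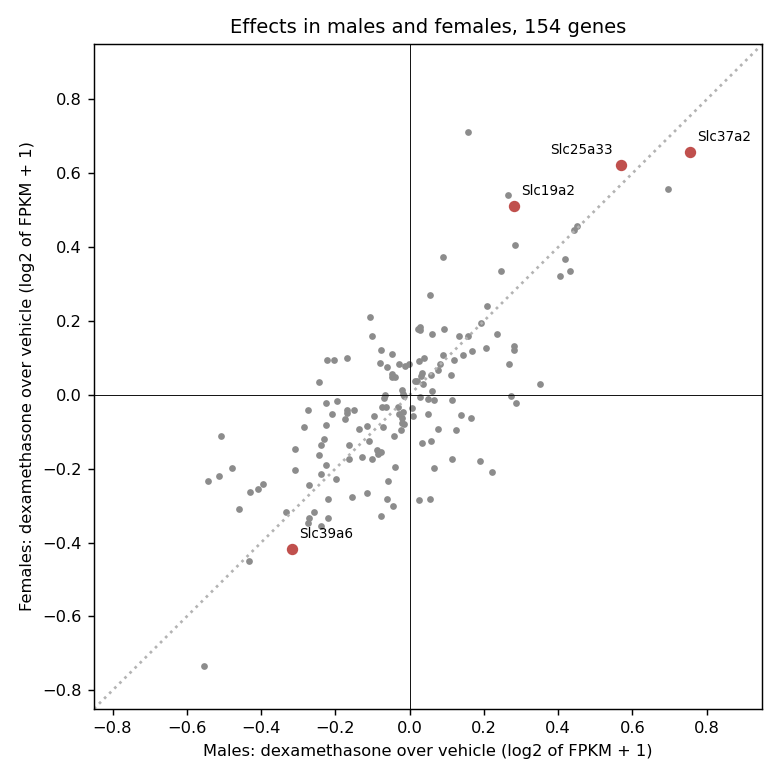
Effect of dexamethasone in females (vertical axis) against that in males (horizontal axis) for the 154 genes, both as log2 of FPKM + 1, dexamethasone over vehicle; the dotted line marks equal effects and red points the 4 called genes. Signs were equal in 115 of 154 genes.

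Between the sexes themselves no member was called without a block. With the replicate number alone as block across the sexes, a pairing the labels do not state, Slc38a6 was called higher in females under vehicle. No member was called under dexamethasone. This block called 7 of 14931 loci higher and 5 lower under vehicle, and 2 higher and 6 lower under dexamethasone. Female cultures minus male cultures under dexamethasone gave 0 calls and 10 members with an unadjusted p under 0.05 (9 higher in females, 1 lower), where all loci gave 0.067% and 2.94%. Under vehicle there were 0 calls and 15 members with an unadjusted p under 0.05 (12 higher in females, 3 lower), where all loci gave 0.0737% and 4.88%. Under dexamethasone the difference was positive for 102 of 154 members and for 8938 of 14931 tested loci (medians 0.076 and 0.037). Under vehicle it was positive for 98 members and for 8511 tested loci (medians 0.055 and 0.032). Of 8 X-linked members it was positive for 5 under dexamethasone and 7 under vehicle, and of 146 autosomal members for 97 under dexamethasone and 91 under vehicle. The GABA transporter Slc6a11, named after its values were seen, was at 104, 159 and 118 FPKM in female vehicle libraries, against 79.4, 94.3 and 78.2 FPKM in male vehicle libraries. These groups did not overlap (log2 difference 0.57, SE 0.21, unadjusted p = 0.0190, adjusted p = 0.892). The astrocytic marker sum was 1085 to 2421 FPKM in female vehicle libraries and 715 to 1510 FPKM in male vehicle libraries, and its part in this difference was not tested.

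For comparison, 43 transport genes without an Slc symbol and a number (sodium pump subunits, partner proteins of carriers, kinases of the chloride cotransporters, and Mfsd, Slco and ABC transporter genes) averaged 2 FPKM or more. Of these 2 rose, 0 fell and 41 were not called in the averaged effect. The share called was 4.65%, against 2.6% of the 154 members, 1.85% of protein-coding tested loci and 1.53% of all tested loci. The 2 that rose were Mfsd2a, a carrier of lysophospholipids, with a log2 fold change of 2.28 (limma adjusted p = 0.000486), and Abca4, a lipid flippase, with 1.40 (adjusted p = 0.0124). Abca4 was at 0.681 to 1.33 FPKM in male vehicle libraries and at 0.459 to 0.897 FPKM in female vehicle libraries. It reached the threshold of 2 FPKM only through the dexamethasone libraries, so nothing is read from its call or from the share of 4.65%. Mfsd2a was at 42.5, 22.8 and 27.1 FPKM in male dexamethasone libraries, against 6.30, 4.78 and 6.62 FPKM in male vehicle libraries. The female values were 21.4, 38.4 and 35.4 FPKM under dexamethasone, against 3.31, 6.96 and 5.44 FPKM under vehicle. All 6 dexamethasone libraries were above all 6 vehicle libraries, and the fold change was beyond that of every one of the 154 members.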

How the data were processed

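The table the authors deposited holds FPKM for 40597 loci in 12 libraries, on the GRCm38 build. Cuffdiff 2.2.1, Cufflinks 2.2.1 and TopHat2 2.0.9 are named in the submitters' processing notes. The sources used here give neither annotation release nor strand setting, and the depth is unknown. Differences were computed by limma 3.58.1 (R 4.3.3) on log2(FPKM + 1): 1 mean per group, all 12 libraries, a mean-variance trend, two-sided tests and Benjamini-Hochberg adjustment over the 14931 loci averaging 1 FPKM or more. All 154 members passed this filter. All adjusted p-values printed are limma's, and fold changes on this scale understate those of low genes. The code was tested on simulated data. Transport classes were assigned by family and known substrate. The members and lists were chosen with earlier results of these data known. Named members were those called, the 10 largest fold changes each way, the 12 highest levels, the leading gene of each class and those next to the threshold; others are said to be named after their values were seen, and some members that this rule takes in are not reported here.

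Replicate numbers were read from the sample titles, without a statement of what a number stands for. Same-numbered libraries of a sex deviated together: the correlation was 0.314 to 0.545 over 10053 protein-coding loci of at least 2 FPKM, and 0.0819 to 0.167 over all 14931 loci. Every library correlated best with its own number. The numbers were therefore taken to pair the libraries within a sex, from the data and not from the design, and blocked values stand beside the results they change. Coordinates are from GENCODE M21 and promoter windows from RefSeq (GRCm38.p6). Alternatives were other pseudocounts, filters and scalings, the replicate block, a robust fit, only the groups compared, and fits without libraries.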

Additional observations from a re-analysis of the deposited data

How the results depend on the processing

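The count of members called in the averaged effect moved with several settings, from 3 higher and 1 lower. Without a filter on low values there were 1 higher and 0 lower (174 and 40 of 27636 over all loci). Scaled to the protein-coding sum there were 1 higher and 1 lower (128 and 86 of 14949). With the replicate block there were 6 higher and 4 lower, 3 members called in males and 1 in females. Over all loci the block gave 420 higher and 384 lower, 95 and 53 in males, and 128 and 59 in females. With the number alone as block across the sexes, 1 member (Slc38a6) was called in the difference of the sexes under vehicle, against 7 higher and 5 lower over all loci. The block changed no other call of a member. There were 0 higher and 0 lower without male vehicle library 3 and male dexamethasone library 2 together (95 and 19 of 14849 over all loci). The same held without both male libraries of replicate 2, an alternative chosen after seeing the data (85 and 19 of 14932). The main fit called 171 higher and 58 lower of 14931. Leaving out 1 library at a time, always without the block, gave 0 to 3 higher and 0 to 1 lower, with 120 to 169 higher and 26 to 52 lower over all loci. Pseudocounts of 0.1 and 0.5, quantile normalization and the robust fit called the same 4 members, and a filter at 5 FPKM called the same ones without Slc37a2, which it did not test. Slc35c2 and Slc9a3r2 were each called higher in 1 of 12 fits without 1 library. Scaling to the protein-coding sum lost Slc37a2 (adjusted p = 0.0653) and Slc19a2 (0.119). The direction of the averaged effect held for the 4 called genes in every setting. The difference between the sexes in the effect changed sign when 1 library was left out for Slc25a33 (-0.036 to 0.19) and for Slc37a2 (-0.29 to 0.042), and for Slc37a2 without male vehicle library 3 and male dexamethasone library 2 (0.069). The cause of these shifts was not tested. With 6 libraries a treatment and without the block, the 95% interval of a member's averaged fold change had a median width of 0.26 to either side on the log2 scale. It was narrower for some members and wider for others.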
